A study of Mus musculus with 12 samples.

Results

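The mouse miRNA families miR-297, miR-466 and miR-669 were followed in blood of Tff3 knockout and wild-type mice. They were taken as every ID in the deposited intensity table that begins with mmu-miR-297, mmu-miR-466 or mmu-miR-669, star IDs included, which gave 42 of 710 miRNAs. Of these, 6 belong to miR-297, 20 to miR-466 and 16 to miR-669. The ID names the 3p arm in 9 cases, the 5p arm in 8, a star in 2 and no arm in 23. A star is an older mark for the less abundant strand of a hairpin.

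A miRNA is a short RNA cut from the stem of a hairpin transcript, and either strand of the stem can be loaded into an Argonaute protein, where bases 2 to 8, the seed, pair with target transcripts. In mice the 3 families, together with miR-467, form a large repeated group of hairpins in an intron of Sfmbt2, a Polycomb group gene that is imprinted and expressed from the paternal copy in extraembryonic tissue. The group is known mainly from placenta and embryonic stem cells.

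Peripheral blood was taken from 12 mice, 6 labelled tff3 KO and 6 labelled wild type, each genotype with 3 males and 3 females. The gene Tff3 codes for a trefoil peptide that goblet cells of mucosal epithelia secrete with mucus. The blood was stabilised at collection, and total RNA with its small RNAs was isolated from the pelleted material of each animal, per the labels' protocols. Bound miRNAs were labelled with biotin on the array by primer extension. The sources used here give no strain, age or structure of the Tff3 allele, no treatment is named for either group, and the design text calls the samples knock-downs where the labels say knockout. The array holds no probe for Tff3, so the genotype labels could not be checked. Knockout columns carry the label numbers 1 to 6, while wild-type columns are numbered 7 to 12 and were used as wild types without a sex.

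The name of the cluster holds for most IDs but not for all. In the RefSeq gene table of assembly GRCm38.p6, 40 of the 42 IDs matched a locus, and miR-466a-3p and miR-466a-5p did not match. All loci of 31 IDs lie within Sfmbt2. For 5 IDs (miR-466f, miR-466f-3p, miR-466f-5p, miR-297a and miR-297a*) at least 1 copy lies inside and 1 outside, and miR-466i, miR-466j, miR-466k and miR-669n lie outside only. Copies are many: miR-669a has 12 loci and miR-466b has 8, so the signal of such an ID cannot be assigned to one locus.

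RefSeq mature sequences were matched for 4 of the 42 IDs, all of them outside Sfmbt2, and each of the 4 holds a short repeat. No miR-297 sequence was matched, and the other IDs were not examined for a repeat. They are printed 5′ to 3′ with the seed, bases 2 to 8, in capitals, and coordinates are those of GRCm38.p6. The entry used for miR-466i is RefSeq's miR-466i-3p, the only product listed, although the array ID names no arm. miR-466i lies at chr13:17747552-17747573 on the plus strand, miR-466j at chr10:60960802-60960824 on the plus strand, miR-466k at chr3:85467396-85467418 on the plus strand and miR-669n at chr3:115979905-115979924 on the plus strand.
miR-466i: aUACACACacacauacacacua
miR-466j: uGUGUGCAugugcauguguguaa
miR-466k: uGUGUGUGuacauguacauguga
miR-669n: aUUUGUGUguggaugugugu
Most of miR-466i is alternating A and C, and the other 3 hold runs of G and U, which are the complement of such a run. No 2 of the 4 seeds are the same. The hexamer ACACAC was found in miR-466i, and the hexamer GUGUGU in the other 3. Only the printed strand was searched, and among all 225 array IDs with a RefSeq sequence ACACAC was in 2.67% and GUGUGU in 3.11%. To set the members beside other miRNAs with the same letters, 3 more sequences are shown: miR-467f, of the fourth family, at chr11:69635419-69635439 on the minus strand, and 2 miRNAs of other families, miR-574-5p at chr5:64970328-64970350 on the plus strand and miR-1187 at chr5:82798964-82798986 on the minus strand.
miR-467f: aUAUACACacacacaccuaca
miR-574-5p: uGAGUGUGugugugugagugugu
miR-1187: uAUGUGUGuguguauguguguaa

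Levels are given as log2(quantile-normalized intensity + 50). After quantile normalization a rank has 1 value on all arrays, and a probe's level cannot be set against another probe's to compare the amounts of 2 miRNAs. Knockout arrays summed to 629500 ± 118637 and wild-type arrays to 632979 ± 278969 (SD, n = 6 each), with the lowest sum, 391740, on wild type 11 and the highest, 1111471, on wild type 8. miRNAs abundant in red cells (miR-451, miR-486, miR-144, miR-16) reached intensities of 344 to 64575. The 3 listed miRNAs of placenta and stem cells, miR-290-5p, miR-292-3p and miR-295, summed to 80 to 356 on knockout arrays and 112 to 252 on wild-type arrays. In blood, fewer cells of a type and less RNA per cell cannot be told apart. The number of arrays limits precision: the 95% confidence interval of a genotype difference reached 0.40 to either side for a typical member.

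No detection limit was measured for these probes, so a low level is not read as expression. Mean levels were 7.62 for miR-124, a brain miRNA, 6.85 for miR-290-5p and 6.83 for miR-292-3p. No member had an intensity below 0 on any array, the lowest being 8, and 37 of 42 had a mean level at or above the median of all miRNAs, 7.21. Mean levels ran from 6.81 for miR-669g to 12.66 for miR-466f-3p. miR-466f-3p ranked 24 of 710 and miR-466i ranked 42, and the third member, miR-466f, ranked 85. The 42 IDs held between 3.26% and 5.08% of summed intensity in knockouts and between 1.95% and 3.67% in wild types. miR-466f-3p and miR-466i alone held 1.22% to 3.52% and 0.464% to 2.20%. The other 40 IDs held 1.74% ± 0.31 of knockout and 1.60% ± 0.18 of wild-type intensity (SD, n = 6 each), so the gap in the total lay mainly in those 2 probes.

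**Figure D1:**
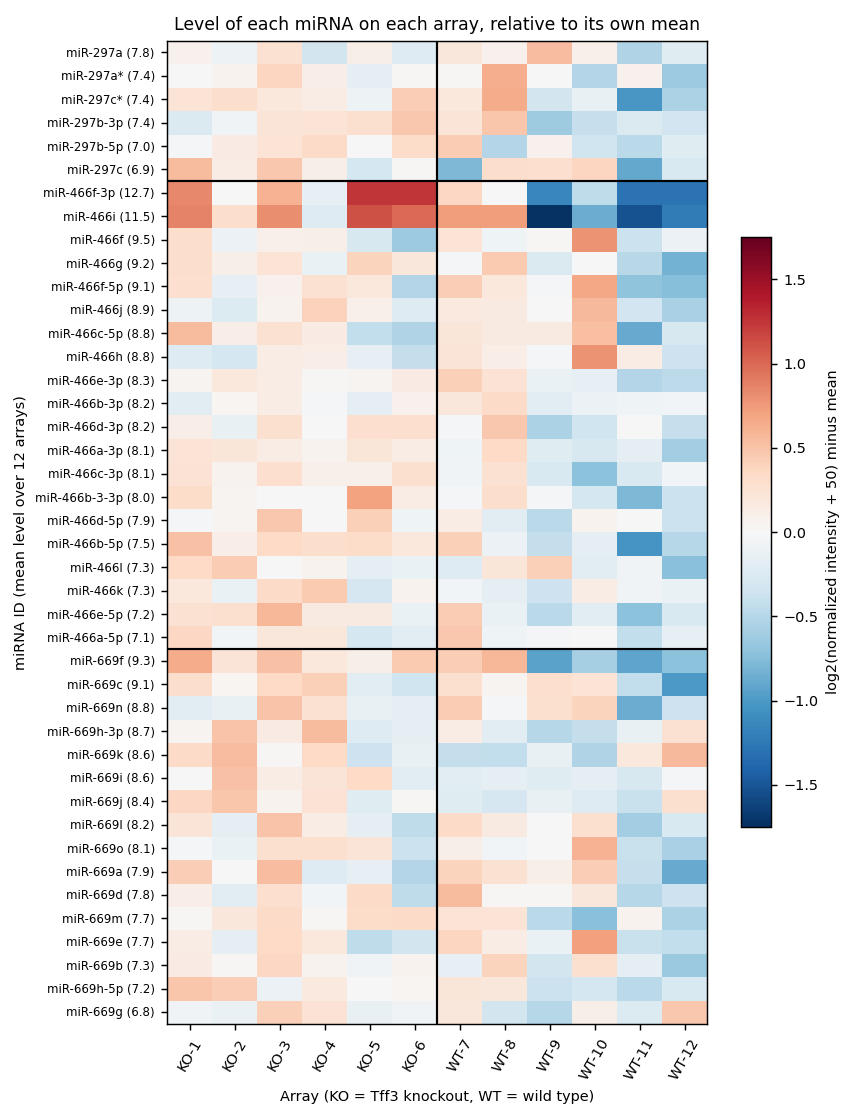
Each cell is the level of 1 miRNA ID on 1 array minus that ID's mean over the 12 arrays, in log2 units, with knockout arrays left and wild-type arrays right of the vertical line and the 3 families parted by horizontal lines. The miR-466f-3p and miR-466i rows vary most, with SDs over the 12 arrays of 0.92 and 1.06, and wild type 11 has the lowest value of 16 IDs.

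miR-466f-3p, the 3p strand of miR-466f, had intensities of 8630, 7110, 9242, 3917, 15400 and 14672 in knockouts 1 to 6. In wild types 7 to 12 they were 11655, 13039, 2305, 2657, 1269 and 1541. Wild types 7 and 8 lay within the range of the knockouts and the other 4 wild types lay below every knockout, so the groups overlapped. After normalization the levels were 13.50, 12.66, 13.27, 12.52, 13.92 and 13.92 on knockout arrays 1 to 6, against 13.02, 12.66, 11.52, 12.22, 11.36 and 11.36 on wild-type arrays 7 to 12. The knockout mean level was 13.30 ± 0.60 and the wild-type mean 12.02 ± 0.72 (SD, n = 6 each). The log2 difference was 1.27 with a standard error of 0.32 and a 95% confidence interval of 0.59 to 1.95. It did not pass limma's test after Benjamini-Hochberg adjustment over all 710 miRNAs (adjusted p = 0.135), although all 6 knockouts lay above the wild-type mean.

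miR-466i, the AC-repeat miRNA printed above, was low on the same 4 wild-type arrays. Its intensities were 4025, 4257, 4433, 1873, 6986 and 7326 on knockout arrays 1 to 6, against 6266, 8890, 760, 1057, 548 and 808 on wild-type arrays 7 to 12. By intensity, wild type 8 was the highest array and wild type 7 stood among the knockouts, while the other 4 wild types stood below all knockouts. Its levels were 12.34, 11.77, 12.28, 11.25, 12.58 and 12.46 on knockout arrays 1 to 6, against 12.20, 12.20, 9.74, 10.60, 9.93 and 10.24 on wild-type arrays 7 to 12. By level, knockout 5 was the highest array, and wild types 7 and 8 both stood among the knockouts. The difference of 1.29 had a standard error of 0.41 and did not pass (limma with Benjamini-Hochberg adjustment, adjusted p = 0.300).

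miR-669f, whose only RefSeq locus lies in Sfmbt2, was the brightest of the miR-669 IDs and was also low on those arrays. Its levels were 9.90, 9.49, 9.77, 9.44, 9.36 and 9.72 on knockout arrays 1 to 6, against 9.69, 9.84, 8.32, 8.68, 8.34 and 8.54 on wild-type arrays 7 to 12. The SD was 0.21 in knockouts and 0.68 in wild types, and the difference was 0.71 with a standard error of 0.26 (limma with Benjamini-Hochberg adjustment, adjusted p = 0.405). miR-466b-5p, the 5p strand of the 8-copy hairpin, had levels of 8.0, 7.60, 7.83, 7.79, 7.81 and 7.67 on knockout arrays 1 to 6, against 7.90, 7.39, 7.06, 7.33, 6.45 and 6.99 on wild-type arrays 7 to 12. Here 1 wild type, number 7, lay within the knockouts' range. Its difference was 0.60 with a standard error of 0.20 and did not pass either.

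**Figure D2:**
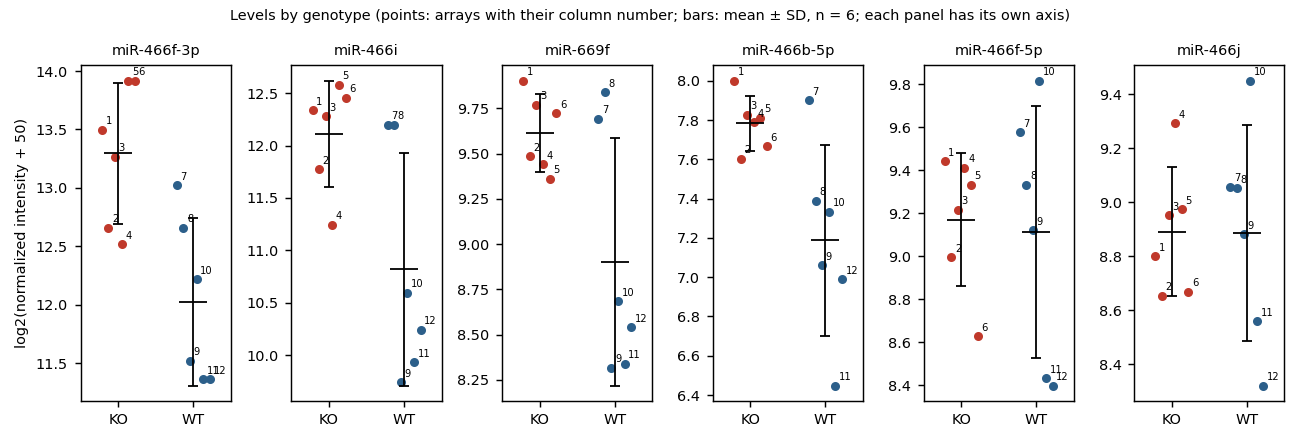
Points are levels, log2(normalized intensity + 50), of 6 miRNA IDs on single arrays, labelled with the column number, and bars are the mean ± SD of 6 arrays. Wild types 7 and 8 lie among the knockouts for miR-466f-3p, miR-466i and miR-669f. For miR-466f-5p and miR-466j the knockouts lie within the wild types' range, with wild type 10 above and wild types 11 and 12 below every knockout.

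The order differed among the other bright members. miR-466f, with no arm in its ID, was at 9.84, 9.43, 9.62, 9.63, 9.25 and 8.90 on knockout arrays 1 to 6, against 9.77, 9.45, 9.54, 10.31, 9.16 and 9.43 on wild-type arrays 7 to 12. Its highest array was wild type 10 and its lowest knockout 6, and its difference was -0.17 with a standard error of 0.20. miR-466f-5p, the partner strand of miR-466f-3p, was at 9.44, 9.0, 9.22, 9.41, 9.33 and 8.63 on knockout arrays 1 to 6, against 9.58, 9.33, 9.12, 9.82, 8.43 and 8.40 on wild-type arrays 7 to 12. The knockouts lay within the wider range of the wild types, and the difference was 0.06 with a standard error of 0.24.

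The GU-repeat members printed above showed no detectable difference. miR-466j was at 8.80, 8.65, 8.95, 9.29, 8.97 and 8.67 on knockout arrays 1 to 6, against 9.06, 9.05, 8.88, 9.45, 8.56 and 8.32 on wild-type arrays 7 to 12. The interval of its difference ran from -0.40 to 0.40. miR-669n was at 8.64, 8.71, 9.35, 9.10, 8.71 and 8.67 on knockout arrays 1 to 6, against 9.29, 8.82, 9.12, 9.24, 7.98 and 8.48 on wild-type arrays 7 to 12. The highest and the lowest array of miR-466j were both wild types, those of miR-669n were knockout 3 and wild type 11, and the interval for miR-669n ran from -0.43 to 0.51. miR-466k, the other member printed with a GU run, differed by 0.21 with a standard error of 0.16.

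Among the remaining bright Sfmbt2 members, miR-466g was at 9.49, 9.29, 9.43, 9.07, 9.58 and 9.38 on knockout arrays 1 to 6, against 9.17, 9.65, 8.94, 9.18, 8.70 and 8.35 on wild-type arrays 7 to 12. Wild types 9, 11 and 12 lay below every knockout and wild type 10 below 5 of the 6, while the highest value was in wild type 8. Its difference of 0.37 (standard error 0.19) did not pass. miR-669c was at 9.41, 9.13, 9.45, 9.51, 8.92 and 8.76 on knockout arrays 1 to 6, against 9.38, 9.16, 9.40, 9.35, 8.66 and 8.09 on wild-type arrays 7 to 12. miR-466c-5p was at 9.37, 8.94, 9.08, 8.96, 8.39 and 8.29 on knockout arrays 1 to 6, against 9.03, 8.97, 8.97, 9.35, 7.94 and 8.54 on wild-type arrays 7 to 12. In both, knockouts 5 and 6 and wild types 11 and 12 were the low arrays of their groups, and the differences were 0.19 and 0.04 with standard errors of 0.23 and 0.24.

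No member passed the adjusted threshold of 0.05 for genotype: limma with Benjamini-Hochberg adjustment called 0 of 42, against 0.0% of all 710 miRNAs. At an unadjusted p under 0.05 there were 8 members, all higher in knockouts, where 9.01% of all miRNAs reached this in either direction and 4.37% were higher in knockouts. By the exact Wilcoxon rank-sum test, too, 0 members passed after adjustment and 8 before it. Beside the 4 described above, the limma fit gave miR-466e-5p with a log2 difference of 0.45 (standard error 0.19), miR-669m with 0.41 (0.19), miR-466c-3p with 0.36 (0.16) and miR-669i with 0.34 (0.14). The count of 8 was 15 without wild type 8 and 5 without wild type 11. No member had groups that did not overlap, where 0.704% of all miRNAs did.

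The differences leaned one way across the families. In 37 of 42 members the mean was higher in knockouts, against 49.4% of all miRNAs, and the median difference was 0.23, against -0.001 over all miRNAs. It was 0.31 for miR-297, with 5 of 6 above 0. For miR-466 it was 0.24, with 17 of 20 above 0, and for miR-669 it was 0.19, with 15 of 16. By arm the medians were 0.30 for 3p IDs, 0.31 for 5p IDs, 0.27 for the 2 star IDs and 0.19 for IDs without an arm. Without miR-466f-3p and miR-466i, 35 of 40 were above 0 and the median was 0.20. The 31 IDs wholly within Sfmbt2 had a median of 0.29 and a mean of 0.24. The 4 wholly outside, miR-466i among them, had a lower median of 0.12 but a higher mean of 0.39. The 5 with copies in both places had a median of 0.06 and a mean of 0.25. All of these values share the same 12 arrays, and no test was made over a list.

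The lean was not seen when the wild types numbered 9 to 12 had no weight. With columns 1 to 8 and 9 to 12 as blocks, a split first made with values of these data known, knockouts are compared with wild types 7 and 8 alone. The median over members was then -0.06, 17 of 42 members were above 0, and no member had an unadjusted p under 0.05. The difference was 0.46 for miR-466f-3p, -0.08 for miR-466i, -0.15 for miR-669f and 0.14 for miR-466b-5p. No label names a batch, so column position and mouse cannot be told apart among the wild types. The number of members above 0 was 29 without wild type 11 and 29 without wild type 12.

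**Figure D3:**
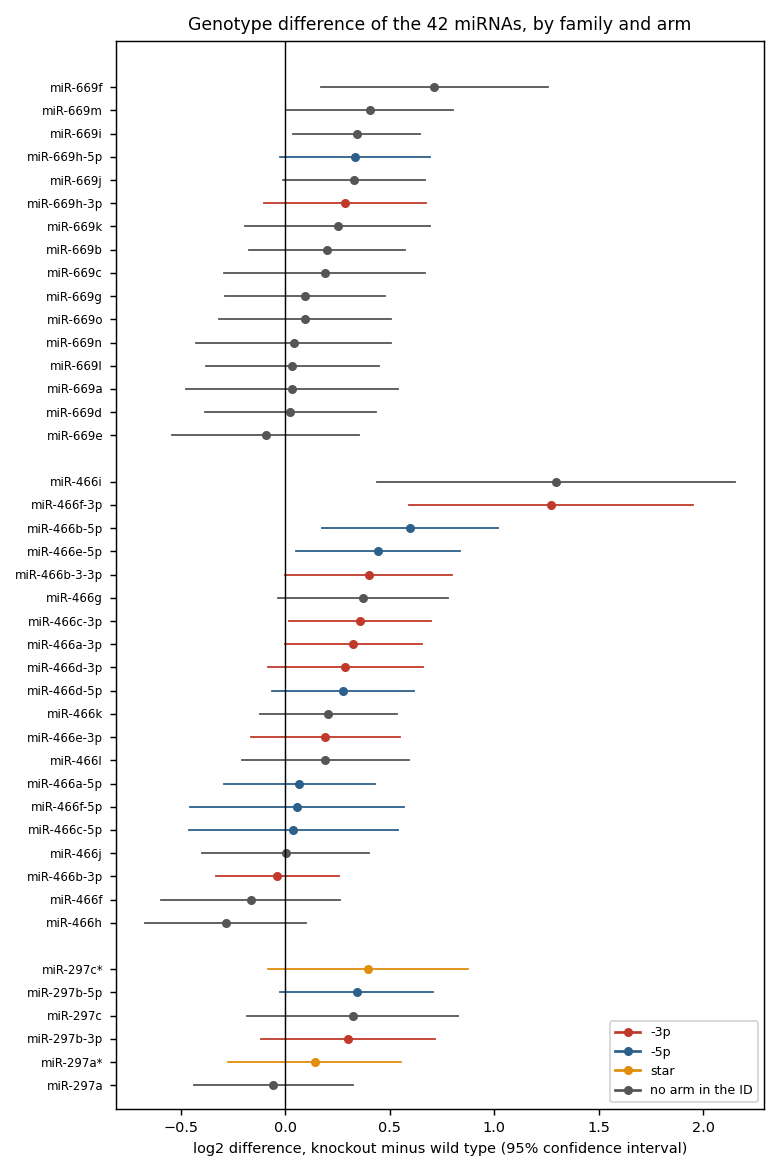
Points are the log2 difference, knockout minus wild type, of each of the 42 IDs, bars are 95% confidence intervals from limma, and colours mark the arm named in the ID. Most points lie right of 0, from -0.28 for miR-466h to 1.29 for miR-466i, and most intervals include 0.

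Some markers of blood and other cells also varied among the wild types. The summed intensity of the 4 red cell miRNAs was 113072 and 129310 in wild types 7 and 8, between 40694 and 61255 in wild types 9 to 12, and between 57806 and 101416 in knockouts. Wild types 7 and 8 were also the brightest wild-type arrays as a whole, with sums over all miRNAs of 814648 and 1111471 against 391740 to 576861 in the other 4. After normalization, the scale used for the members, the red cell miRNAs differed in this. miR-451 was at 11.10, 11.36, 10.96, 10.83, 10.37 and 10.41 in wild types 7 to 12, highest in 7 and 8. Its knockout levels lay between 9.98 and 11.52. The others did not part the wild types this way, and miR-486 was at 15.63, 15.22, 15.22, 15.22, 15.42 and 15.22 in the same order. miR-144 was at 10.42, 8.73, 10.60, 9.95, 10.12 and 8.63 in wild types 7 to 12, and miR-16 at 14.92, 15.02, 14.72, 15.02, 14.92 and 15.02. miR-122, the main miRNA of hepatocytes, was at 6.95, 8.47, 8.04, 11.77, 11.82 and 12.90 in the same order. It was high in wild types 10 to 12 but not in wild type 9, and among knockouts it lay between 6.68 and 8.41 except for 12.34 in knockout 6, in which miR-466f-3p and miR-466i were high. The myeloid miR-223 was at 13.11 in wild type 8 and between 10.09 and 11.44 on all other arrays. The leukocyte miR-142-5p was at 11.44, 10.83, 10.17, 10.12, 9.70 and 9.18 in wild types 7 to 12, highest in 7 and 8. Its knockout levels lay between 10.04 and 11.10. miR-142-3p was at 6.55, 6.53, 7.17, 6.29, 6.30 and 5.78 in wild types 7 to 12, highest in 9. Between genotypes, miR-144 differed by 1.02 (standard error 0.39), with knockout levels between 9.96 and 12.12. The other red cell miRNAs differed by -0.09 for miR-451, -0.04 for miR-486 and 0.14 for miR-16. Of the lymphocyte miRNAs, miR-181a differed by -1.08 (0.27) and miR-150 by 0.16 (0.25). None of these passed (limma with Benjamini-Hochberg adjustment). The part of the markers in the members' differences was not tested.

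The member with the lowest difference was miR-466h, for which knockouts averaged 8.62 ± 0.22 and wild types 8.91 ± 0.38 (SD, n = 6 each). Its difference was -0.28 with a standard error of 0.18, and wild type 10 was its highest array at 9.54. miR-466f followed with the -0.17 given above and miR-669e with -0.09 (standard error 0.21). Wild type 10 was also the highest array of miR-466f, miR-466f-5p, miR-466j, miR-669e and miR-669o, and the lowest for miR-466c-3p (7.37), so within a single animal the IDs did not move together. Wild type 11 held the lowest value of 16 members and wild type 12 of 10, while wild type 8 held the highest value of 8. In 38 of 42 members the SD was smaller in knockouts than in wild types, as it was in 65.1% of all miRNAs. The median SD of a member was 0.25 in knockouts and 0.39 in wild types.

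For miR-297a, the brightest miR-297 ID, knockouts averaged 7.80 ± 0.22 and wild types 7.85 ± 0.37 (SD, n = 6 each). For its star ID miR-297a* the means were 7.50 ± 0.18 and 7.36 ± 0.46, and the genotypes of both IDs overlapped. The difference was 0.30 for miR-297b-3p, 0.34 for miR-297b-5p, 0.40 for miR-297c* and 0.32 for miR-297c, with standard errors of 0.17 to 0.24. No miR-297 ID had an unadjusted p under 0.05.

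The 2 strand IDs of a name can be compared within an array by their levels. The offset in the level understates changes of a dim strand. A gap in levels therefore does not show whether both strands changed by the same amount, nor which is more abundant. miR-466f and miR-297a have 4 RefSeq loci each, miR-466c has 3 and miR-466b has 8. The gaps of these names cannot be assigned to a single hairpin. For 10 names both strands were measured, and the level of the first strand minus that of the second was compared between genotypes. The test was an exact permutation of the genotype labels, two-sided, with Benjamini-Hochberg adjustment over the 10 pairs. For miR-466f the 3p minus 5p value averaged 4.13 ± 0.75 over knockouts and 2.91 ± 0.44 over wild types (SD, n = 6 each), which leaves a gap of 1.21 (exact permutation p = 0.0087, adjusted p = 0.043). miR-466f-3p differed by 1.27 between genotypes and miR-466f-5p by 0.06. For miR-466b the gap ran the other way, with 0.45 ± 0.24 over knockouts and 1.08 ± 0.40 over wild types, which leaves a gap of -0.63 (exact permutation p = 0.0087, adjusted p = 0.043). Here the 5p strand differed by 0.60 and the 3p strand by -0.04. The 5p strand was dim, with mean levels of 7.78 in knockouts and 7.19 in wild types, against 7.62 for the brain miRNA miR-124. The miR-466b gap was -0.93 with an offset of 1 and -0.34 with an offset of 200. A second 3p ID, miR-466b-3-3p, is named for 1 of the 8 miR-466b loci and differed by 0.40 (standard error 0.19). With it in place of miR-466b-3p, a choice made after the values were seen, the gap was -0.20 (exact permutation p = 0.281, adjusted p = 0.693).

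Both calls were marginal. Leaving out any one array other than knockout 4 or wild type 7 took the adjusted p of miR-466f to between 0.058 and 0.087 by the same exact test. For miR-466b this held for every array other than wild type 7, over the same range of adjusted p. The gaps themselves stayed between 1.01 and 1.42 for miR-466f and between -0.74 and -0.51 for miR-466b. With columns 1 to 8 only, they were smaller, at 0.75 and -0.44 (exact permutation p = 0.214 and 0.286). There 6 arrays against 2 cannot give an exact two-sided p below 0.071.

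The other 8 pairs did not pass. The gap was -0.25 for miR-466e (exact permutation p = 0.076, adjusted p = 0.253), whose 5p strand differed by 0.45 and 3p strand by 0.19. It was 0.26 for miR-466a, 0.32 for miR-466c, 0.01 for miR-466d, -0.04 for miR-297b and -0.05 for miR-669h. In miR-669h the strands differed by 0.29 for 3p and 0.33 for 5p. For the star pairs it was 0.20 in miR-297a and 0.08 in miR-297c.

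**Figure D4:**
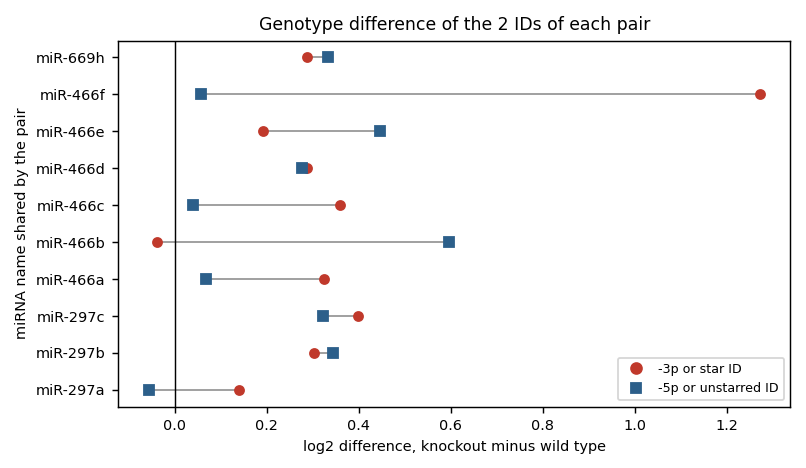
For each of the 10 names with both strands measured, the circle is the log2 genotype difference of the 3p or star ID and the square that of the 5p or unstarred ID, joined by a line. The line is longest for miR-466f, from 0.06 to 1.27, and runs in the other direction for miR-466b, from 0.60 to -0.04.

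Outside the 3 families, miR-467, the fourth family of the cluster, was measured by 12 IDs. Of these, 10 were higher in knockouts, with a median difference of 0.38, and 6 had an unadjusted p under 0.05, all higher in knockouts. Over all miRNAs 49.4% were higher in knockouts and 4.37% were so with such a p. The 3 brightest were miR-467f, miR-467b* and miR-467a*, with differences of 1.69, 1.41 and 1.26. miR-467f, which like miR-466i lies outside Sfmbt2 and carries the AC run printed above, ranged from 11.95 to 13.39 over knockouts. It was at 12.74 and 12.58 in wild types 7 and 8 and at 10.21, 11.10, 10.19 and 10.60 in wild types 9 to 12, all 4 below every knockout. miR-467a* parted the wild types in the same way, with 9.93 and 10.04 against 7.94, 8.55, 7.54 and 7.91. Of 6 IDs from other families whose sequence holds GUGUGU or ACACAC, miR-574-5p differed by 0.13 (standard error 0.21) and miR-1187 by 0.10 (0.22). The 3 others above 0, all holding ACACAC, were miR-574-3p with 0.42 (0.23), miR-362-3p with 0.43 (0.16) and miR-568 with 0.31 (0.25). miR-539, which holds GUGUGU as miR-574-5p and miR-1187 do, differed by -0.56 (0.26). By limma miR-362-3p and miR-539 had an unadjusted p under 0.05, and none of the 6 passed after adjustment. Whether probes of such similar sequence share targets was not tested.

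Sex was compared first among the 6 knockouts, of which columns 1 to 3 are male and 4 to 6 female, so that sex and column order cannot be told apart. No member passed (limma with Benjamini-Hochberg adjustment, 0 of 42, against 0.0% of all miRNAs). With unadjusted p under 0.05 there were 2, both lower in females, where 7.32% of all miRNAs reached this and 2.82% were lower. They were miR-669a, the 12-copy ID, with a female minus male log2 difference of -0.62 (standard error 0.21), and miR-466c-5p with -0.58 (0.23). In 35 of 42 members the female mean was lower, against 55.9% of all miRNAs, but the median difference was only -0.09, against -0.04 over all miRNAs.

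A second deposited table, which holds values normalized by the authors and a column for each labelled mouse, gave the sex of all 12 animals. With genotype in the limma fit, again no member passed after Benjamini-Hochberg adjustment (0 of 42, against 0.141% of all miRNAs). The unadjusted p was under 0.05 for 5 members, all lower in females: miR-669a, miR-466c-5p, miR-669c, miR-466l and miR-297a. Of all miRNAs 12.3% reached this and 5.77% were lower in females. The female mean was lower in 37 of 42 members, against 49.4% of all miRNAs, and the median difference was -0.22, against 0.003. These values include the knockouts above and are not independent of them. In both genotypes the males carry the lower label numbers and the females the higher. Sex and label order cannot be told apart here either.

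For miR-669a the levels from that table were 8.22, 7.83 and 8.33 in knockout males and 7.62, 7.69 and 7.35 in knockout females. In wild types they were 8.18, 8.07 and 7.92 in males and 8.21, 7.45 and 6.97 in females. The sexes did not overlap among knockouts, while wild-type female 4 was above all wild-type males. The difference was -0.54 with a standard error of 0.18 (limma with Benjamini-Hochberg adjustment, adjusted p = 0.272).

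The same table showed which mice were high for the brightest members. miR-466f-3p was at 13.30, 12.47 and 13.04 in knockout males and at 12.32, 13.75 and 13.75 in knockout females. Wild-type males 1 to 3 were at 12.82, 12.47 and 11.30 and wild-type females 4 to 6 at 11.97, 11.16 and 11.16. Males 1 and 2 were thus the wild types within the knockouts' range, and male 3 lay within the range of the wild-type females. miR-466i was at 11.91 ± 0.33 in knockout males, 11.89 ± 0.72 in knockout females, 11.15 ± 1.37 in wild-type males and 10.13 ± 0.33 in wild-type females (SD, n = 3 each). With sex in the fit the genotype difference of miR-466f-3p was 1.29 with a standard error of 0.33, and that of miR-466i 1.26 with 0.39, and neither passed.

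The genotype difference was not shown to depend on sex. In the interaction of genotype and sex, limma with Benjamini-Hochberg adjustment called 0 of 42 members, against 0.0% of all miRNAs. Only miR-466b-3-3p had an unadjusted p under 0.05, with 0.69 (standard error 0.30), where 5.92% of all miRNAs did. The interaction was above 0, a larger knockout minus wild-type difference in females, in 29 of 42 members, against 47.5% of all miRNAs. For miR-466f-3p it was 1.10 with a 95% confidence interval from -0.24 to 2.45.

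**Figure D5:**
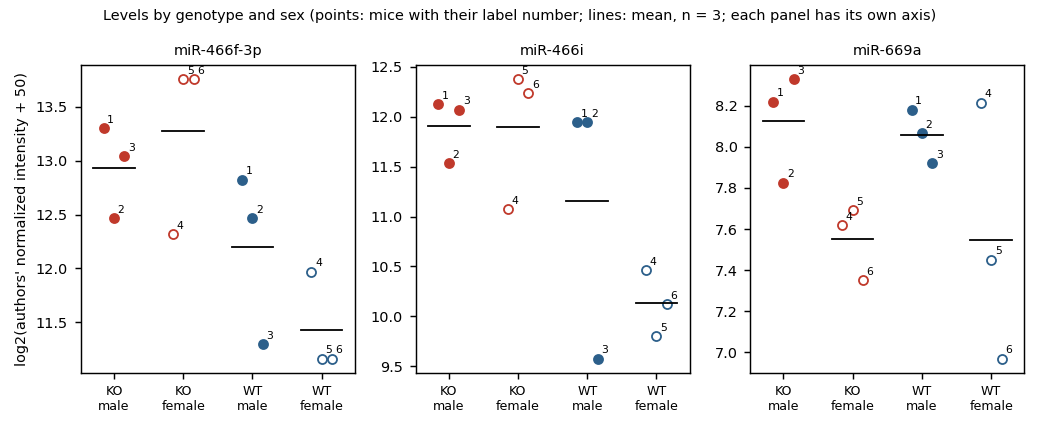
Points are levels, log2(the authors' normalized intensity + 50), of 3 miRNA IDs in single mice, labelled with the mouse number, filled for males and open for females, and lines are means of 3 mice. Wild-type males 1 and 2 lie near the knockouts for miR-466f-3p and miR-466i, and knockout females lie below knockout males for miR-669a.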

How the data were processed

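The authors deposited array intensities for 710 miRNAs on 12 arrays, with values from -64 to 64623 on a linear scale and 3.31% below 0. The authors also deposited a second intensity table by mouse. Its columns share their 4 highest values, so it appears quantile-normalized, though no header states it. Each raw column matched 1 of its columns in rank (Spearman at least 0.99997). The sources used here do not give the scanner, background method or miRBase release. Intensities were quantile-normalized, log2(value + 50) was taken, which understates changes of dim miRNAs, and all 710 miRNAs lay above their array's lowest value on at least 6 arrays. The two-sided tests of single miRNAs came from limma 3.58.1 (R 4.3.3), and their p-values were adjusted by Benjamini-Hochberg over the 710 miRNAs. Arm gaps used exact permutation tests (Python 3.11.15, scipy 1.17.1). Figures used matplotlib 3.10.9. The fit was tested on simulated data with 60 changed miRNAs. RNA came from separate mice, per the labels' protocols.

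The members and lists were chosen with earlier results of these data known. Named by rule were the 10 brightest members, those with an unadjusted p under 0.05 for genotype, the brightest per family and arm, both strands of each pair, the 3 lowest and 3 highest differences, the 2 smallest p for sex, and the 3 brightest miR-467 and repeat-bearing IDs. Others were chosen after their values were seen. Replicate numbers did not pair the samples. Alternatives were other offsets, normalizations, filters, variance models, array weights, the second table, sex as a covariate, column blocks, the replicate number as a block and leaving out each array.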

Additional observations from a re-analysis of the deposited data

How the results depend on the processing

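No member passed the adjusted threshold for genotype or for sex under any alternative run. The smallest adjusted p of a member for genotype over the 25 alternatives was 0.064 (limma, without wild type 7). The median difference stayed between 0.13 and 0.32 in 26 alternatives, 0.21 to 0.26 when 1 array was left out, and turned to -0.06 with column blocks (-0.055) and with columns 1 to 8 only (-0.062), where by construction wild types 9 to 12 carry no weight. The count of 8 members at an unadjusted p under 0.05 became 13 with array weights, 3 without normalization, 0 with column blocks and 1 with columns 1 to 8 only, and ran from 5 to 15 when 1 array was left out. The cause was not tested for array weights or normalization. The arm gaps kept their direction in the alternatives run. Their calls were lost with an offset of 200 (1.21 for miR-466f, -0.34 for miR-466b), scaling to the 75th percentile (1.31, -0.62), cyclic loess (1.30, -0.62), no normalization (1.31, -0.61), most single arrays left out (1.01 to 1.42, -0.74 to -0.51) and, for miR-466b, with miR-466b-3-3p as the 3p ID (-0.20). With columns 1 to 8 only the gaps were smaller (0.75, -0.44), with exact permutation p of 0.214 and 0.286. That setting could not pass, as its smallest exact p is 0.071. The replicate block in the second table (1.25, -0.62) gave both pairs the smallest exact p it allows, 0.031, so its lost calls say nothing about stability. Both calls were kept with an offset of 1 and in the second table. Same-numbered mice had the same sex and deviations correlated at -0.12 to 0.18, and the numbers were not taken as pairs. With the replicate block, which also takes out sex, the genotype count was 0 and the median 0.22. Intensity gives no depth, and 6 arrays a group limit what can be detected.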
